A study of Mus musculus with 12 samples.

Results

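The cyclin-dependent kinases (CDKs) and cyclins that drive the cell division cycle were followed across every library of an RNA sequencing study of a mouse colon carcinoma line, CT26. The members were the rows of the expression table with the gene names Cdk1, Cdk2, Cdk4, Cdk6, Ccna2, Ccnb1, Ccnb2, Ccnd1, Ccne1 and Ccne2. They make up 10 of 12584 genes and were chosen by name, with earlier results of these data known. The 12 libraries formed 4 groups of 3, in which cells had received, for 24 h, NP-D@MP (N10 to N12), NP-D@M (N7 to N9), NP@M (N4 to N6) or PBS (N1 to N3). The labels do not explain these names, and the series title speaks of a nanodrug that carries an engineered cancer cell membrane and is directed at CDKs. No allele or other agent is named for any group, and the labels leave unsaid whether each library stands for its own culture. All p-values here therefore speak of the spread among these libraries alone, which may be technical.

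CDKs are kinases that act only when bound to a cyclin, and the cyclins appear and are destroyed in turn as a cell passes through the cycle. In G1, Cdk4 and Cdk6 bind D-type cyclins such as Ccnd1 and phosphorylate the retinoblastoma protein, which frees E2F factors. Cdk2 then acts with cyclins E (Ccne1, Ccne2) at entry into S phase and with cyclin A2 (Ccna2) during it, and Cdk1 acts with cyclin A2 and cyclins B (Ccnb1, Ccnb2) at entry into mitosis. In many carcinomas, those of the colon among them, cyclin D and its kinases are studied as drug targets, and several CDK inhibitors also hold back transcription through other CDKs.

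Promoters of genes of the late cycle are known for pairs of CCAAT boxes, bound by NF-Y, and for the cell cycle genes homology region (CHR), bound by the MuvB complexes. The windows of Cdk1, Ccnb1 and Ccnb2 are shown because these genes form the mitotic kinase and yet split in the values that follow. Each runs from 100 bases before to 20 bases after the RefSeq transcript start (GRCm38.p6, on the strand of the gene, minus in each case, 5′ to 3′), and capitals mark CCAAT boxes (CCAAT or its complement ATTGG) and CHR elements (TTTGAA or TTCGAA, on either strand). They lie at chr10:69352893-69353012 for Cdk1, chr13:100786467-100786586 for Ccnb1 and chr9:70421535-70421654 for Ccnb2.
Cdk1: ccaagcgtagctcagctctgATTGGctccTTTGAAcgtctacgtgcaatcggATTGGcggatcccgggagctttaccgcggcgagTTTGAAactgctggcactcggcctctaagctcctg
Ccnb1: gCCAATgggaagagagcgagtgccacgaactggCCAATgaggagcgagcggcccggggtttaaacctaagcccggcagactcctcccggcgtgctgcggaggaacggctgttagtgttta
Ccnb2: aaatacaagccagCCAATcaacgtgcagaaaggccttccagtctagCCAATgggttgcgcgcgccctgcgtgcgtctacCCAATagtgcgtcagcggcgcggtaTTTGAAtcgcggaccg
RefSeq promoters were matched for 7 of the 10 members, the others being Ccna2, Ccnd1 and Ccne2. The full window ran from 250 bases before to 50 after the start. In it Ccnb2 held 3 CCAAT boxes and 2 CHR matches, and Cdk1 also held 3 and 2. Ccnb1 held 2 CCAAT boxes and 0 matches to the 2 CHR forms searched. Other forms were not searched, so this does not show that Ccnb1 lacks a CHR. Cdk2 held 1 CCAAT box. An E2F motif (TTTGGCGC, TTTCCCGC, TTTGCCGC or TTTCGCGC, on either strand) was found in Cdk1 and Cdk2, 1 each, and Cdk4, Cdk6 and Ccne1 held none of these 3 motifs. Over 32851 such windows, 37.4% held a CCAAT box, 19.2% a CHR match and 2.26% an E2F motif, so the first 2 are common and a match is no more than a description.

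Expression was given as FPKM, reads divided by gene length and library size, and the library size used differed between the groups in a way that bears on each value here. Whole reads could be recovered from each value. For a gene 1 kb long, 1 read gave 0.119 to 0.140 FPKM in the 6 libraries treated with NP-D@MP or NP-D@M (the libraries with D) and 0.0322 to 0.0355 FPKM in the 6 treated with NP@M or PBS. The reads that the table held differed little, at 12.8 to 14.9 M with D and 13.9 to 15.7 M (M, reads in units of 1e+06) without. The same number of reads therefore gave a higher FPKM with D, and a second scale, the table-read scale, on which each library was divided by the reads it had in the table, is given wherever it changes a direction. Reads of mitochondrial genes made up 7.41% to 14.4% of the table's reads with D and 3.30% to 4.20% without. The extraction text in the labels speaks of retinas, and 0 of 6 retina markers had a row in the table used here. Of 8 markers of colon epithelium 2 had a row, Krt18 and Krt20, which summed to 73.0 to 91.1 FPKM with D and 15.1 to 18.7 FPKM without. Their means went opposite ways: Krt20 averaged 80.4, 78.0, 8.67 and 9.27 FPKM and Krt18 4.19, 4.46, 6.89 and 8.16 FPKM in NP-D@MP, NP-D@M, NP@M and PBS. By limma Krt18 was called lower in NP-D@MP against PBS and was not called in NP-D@M against NP@M (adjusted p = 0.08). Rows were also found for 4 of 5 fibroblast markers, with sums of 10.5 to 15.02 FPKM with D and 69.1 to 84.9 without. Among them Dcn went the other way, at 0.264, 0.355, 0.0544 and 0.0364 FPKM in NP-D@MP, NP-D@M, NP@M and PBS. Dcn rested on 5 to 24 reads per library with D and 3 to 18 without, which overlap, and was not among the genes tested. For 3 of 5 myeloid markers the sums were 9.31 to 21.3 FPKM with D and 2.57 to 3.25 without. On the table-read scale Lyz2 averaged 1.17, 1.36, 1.27 and 1.12 and Cd68 7.94, 6.99, 4.74 and 4.19, in the same order. Ptprc had at most 9 reads in a library. None of 4 lymphoid and 3 erythroid markers had a row, that is 0 in each list. The marker sums and the mitochondrial share both differed between libraries with and without D. Their part in the results that follow was not tested.

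With D, the mitotic and S phase kinase genes, most of their cyclins and the G1 kinase gene Cdk6 were lower. Cdk4, Ccnb2 and Ccnd1 were higher in FPKM, of which Ccnb2 showed no detectable difference and Ccnd1 was lower on the table-read scale. In these bulk samples fewer cells of a kind and less RNA per cell cannot be told apart. In NP-D@M against NP@M, 3 members rose and 7 fell by limma on log2(FPKM + 1) with Benjamini-Hochberg adjusted p under 0.05 over 10101 genes, where 41.8% of all genes tested rose and 47.7% fell. In NP-D@MP against PBS the same 3 rose and the same 7 fell, where 43.2% of genes rose and 47.3% fell. With so large a share of all genes called, a call as such says little about the members. The members' median log2 change was -0.93 in NP-D@M against NP@M and -1.17 in NP-D@MP against PBS, beside -0.19 and -0.16 over all genes tested. Groups did not overlap for any of the 10 members in either comparison, as for 40.7% of all genes on the higher side and 46.6% on the lower in NP-D@M against NP@M, and 44.7% and 48.3% in NP-D@MP against PBS.

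**Figure D1:**
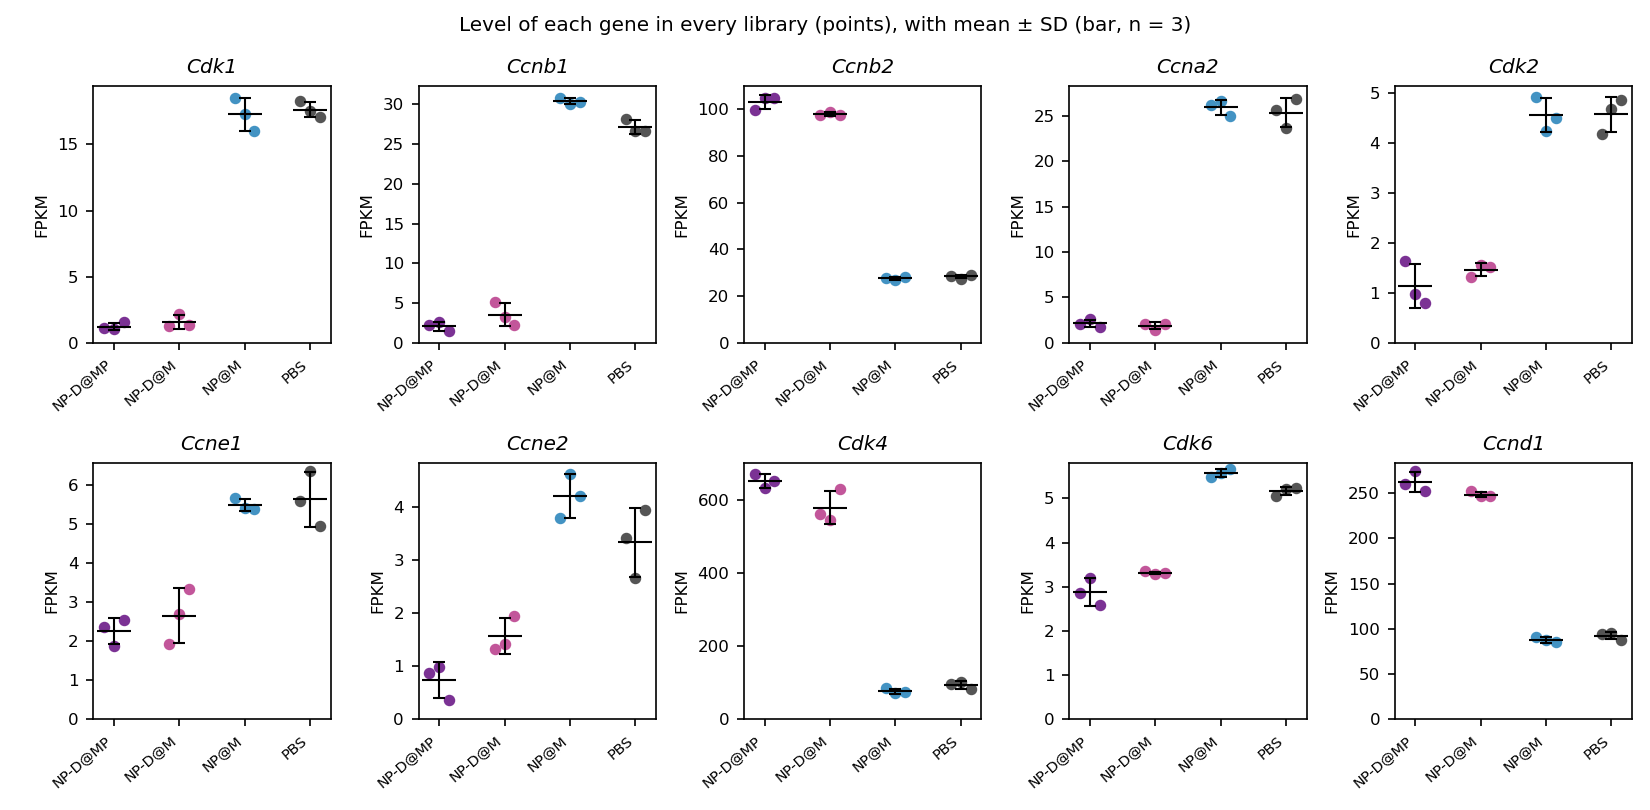
FPKM of the 10 members in each of the 12 libraries, on linear axes that start at 0, with the groups from left to right NP-D@MP, NP-D@M, NP@M and PBS. Points are libraries, and bars give the mean ± SD of 3. The libraries with D lie above those without in Cdk4, Ccnb2 and Ccnd1 and below them in the other 7 members, with no overlap.

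Cdk1 (ENSMUSG00000019942, GRCm38 chr10:69335146-69352938), the kinase gene of mitosis, had 1.23, 2.18 and 1.36 FPKM in NP-D@M libraries, against 18.5, 17.3 and 16.02 FPKM in NP@M libraries. It had 1.11, 1.02 and 1.56 FPKM in NP-D@MP libraries, against 18.3, 17.5 and 17.1 FPKM in PBS libraries. All 6 libraries with D were low and all 6 without were high, far apart, and the reads behind these values were 38 to 78 per library with D and 2376 to 2803 without. Cdk1 fell 10.9-fold by group means in NP-D@M against NP@M (log2 change -2.84 ± 0.14 SE, adjusted p = 3.32e-09) and 14.3-fold in NP-D@MP against PBS (-3.07 ± 0.14, adjusted p = 1.69e-09). Within its library Cdk1 stood above 23.4% to 39.7% of tested genes with D and above 83.2% to 85.8% without.

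Cyclin B1 (Ccnb1, ENSMUSG00000041431, chr13:100778650-100786570), the partner of Cdk1 at entry into mitosis, had 5.08, 3.27 and 2.20 FPKM in NP-D@M libraries, against 30.8, 30.1 and 30.3 FPKM in NP@M libraries. In NP-D@MP libraries it had 2.22, 2.56 and 1.43 FPKM, against 28.1, 26.6 and 26.6 FPKM in PBS libraries. The groups without D were tight, while N7 was the highest library with D and more than 3 times the lowest, N12. Ccnb1 fell 8.65-fold in NP-D@M against NP@M (-2.85 ± 0.20 SE, adjusted p = 8.13e-08) and 13.1-fold in NP-D@MP against PBS (-3.21 ± 0.20, adjusted p = 2.81e-08). Of the 50-base words in its transcripts, 23.4% also occur in other genes, among them the pseudogene Ccnb1-ps. Gm12856 and Gm8416, which also share words, had group means of 0.067 to 0.45 and 0.035 to 0.46 FPKM. How far shared words bear on the level of Ccnb1 was not tested.

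Cyclin A2 (Ccna2, ENSMUSG00000027715, chr3:36564865-36572150), which serves Cdk2 in S phase and Cdk1 after it, had 2.04, 1.42 and 2.12 FPKM in NP-D@M libraries, against 26.1, 26.6 and 24.99 FPKM in NP@M libraries. It had 2.06, 2.58 and 1.75 FPKM in NP-D@MP libraries, against 25.6, 23.6 and 26.9 FPKM in PBS libraries. No library with D was above 2.58 FPKM and none without was under 23.6 FPKM. The fall was 13.9-fold in NP-D@M against NP@M (-3.24 ± 0.12 SE, adjusted p = 4.63e-10), a change below that of all but 0.43% of genes tested, and 11.9-fold in NP-D@MP against PBS (-3.08 ± 0.12, adjusted p = 6.62e-10). It shares 11.4% of its 50-base words with Exosc9 on the opposite strand, which averaged 1.06 ± 0.634, 0.755 ± 0.319, 3.01 ± 0.186 and 2.85 ± 0.122 FPKM (SD, n = 3 each) in NP-D@MP, NP-D@M, NP@M and PBS.

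Cyclin B2 (Ccnb2, ENSMUSG00000032218, chr9:70407692-70421547), the other mitotic B cyclin, went the other way in FPKM. It had 97.4, 98.9 and 97.5 FPKM in NP-D@M libraries, against 27.8, 26.9 and 28.3 FPKM in NP@M libraries. It had 99.5, 105 and 105 FPKM in NP-D@MP libraries, against 28.8, 27.5 and 28.9 FPKM in PBS libraries. The 2 sets of 6 libraries were each tight and did not overlap, but the reads behind them did, at 1098 to 1252 with D and 1220 to 1353 without. The log2 change was 1.79 ± 0.07 SE in NP-D@M against NP@M (adjusted p = 7.93e-10) and 1.82 ± 0.07 in NP-D@MP against PBS (adjusted p = 6.65e-10), yet -0.01 (adjusted p = 0.899) and -0.03 (adjusted p = 0.688) on the table-read scale. On that second scale group means differed by factors of 0.992 and 0.977. Within its library Ccnb2 stood above 90.35% to 91.29% of tested genes with D and above 90.08% to 91.30% without. The windows printed above for Cdk1 and Ccnb2 hold the same kinds of motif, which are common over all windows. Whether the motifs bear on the levels of these 2 genes was not tested.

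Cdk2 (ENSMUSG00000025358, chr10:128697939-128705031), the kinase gene of S phase entry, had 1.32, 1.55 and 1.53 FPKM in NP-D@M libraries, against 4.92, 4.26 and 4.51 FPKM in NP@M libraries. In NP-D@MP libraries it had 1.63, 0.975 and 0.789 FPKM, against 4.19, 4.69 and 4.87 FPKM in PBS libraries. All libraries with D were low, with the widest spread in NP-D@MP. Cdk2 fell 3.11-fold in NP-D@M against NP@M (-1.17 ± 0.13 SE, adjusted p = 4.83e-06) and 4.05-fold in NP-D@MP against PBS (-1.41 ± 0.13, adjusted p = 9.76e-07).

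Cyclin E1 (Ccne1, ENSMUSG00000002068, chr7:38097984-38107534), a partner of Cdk2 at the G1/S boundary, had 1.92, 2.69 and 3.34 FPKM in NP-D@M libraries, against 5.66, 5.402 and 5.38 FPKM in NP@M libraries. It had 2.36, 1.88 and 2.53 FPKM in NP-D@MP libraries, against 5.59, 6.35 and 4.95 FPKM in PBS libraries. The highest library with D, N9, stayed below the lowest without. Ccne1 fell 2.07-fold in NP-D@M against NP@M (-0.85 ± 0.14 SE, adjusted p = 0.000146) and 2.49-fold in NP-D@MP against PBS (-1.02 ± 0.14, adjusted p = 2.97e-05).

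Cyclin E2 (Ccne2, ENSMUSG00000028212, chr4:11191351-11204779), the second E cyclin, had 1.33, 1.42 and 1.95 FPKM in NP-D@M libraries, against 3.78, 4.62 and 4.20 FPKM in NP@M libraries. It had 0.880, 0.981 and 0.361 FPKM in NP-D@MP libraries, against 3.40, 2.65 and 3.93 FPKM in PBS libraries. It was the lowest member by mean in NP-D@MP, NP@M and PBS, and its value in N12 rested on 9 reads (exact 95% Poisson interval 4.12 to 17.1 reads, for counting error only). Ccne2 fell 2.68-fold in NP-D@M against NP@M (-1.02 ± 0.16 SE, adjusted p = 9.15e-05) and 4.49-fold in NP-D@MP against PBS (-1.32 ± 0.16, adjusted p = 1.05e-05). It shares 14.4% of its words with Ints8 on the opposite strand, whose group means lay between 1.22 and 3.92 FPKM, so the 2 genes cannot be told apart there without strand.

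Cdk4 (ENSMUSG00000006728, chr10:127063534-127067920), the G1 kinase gene, had the highest mean FPKM of the members in NP-D@MP, NP-D@M and PBS, while in NP@M Ccnd1 (87.8) stood above it (77.3). It had 563, 547 and 631 FPKM in NP-D@M libraries, against 84.9, 72.9 and 74.0 FPKM in NP@M libraries. It had 674, 635 and 653 FPKM in NP-D@MP libraries, against 98.0, 101 and 83.0 FPKM in PBS libraries. Unlike Ccnb2, Cdk4 also had more reads with D, 12888 to 16828 per library against 7019 to 10109 without. Within its library Cdk4 stood above 97.73% to 97.81% of tested genes with D and above 96.95% to 97.69% without. Cdk4 rose 7.51-fold in NP-D@M against NP@M (2.89 ± 0.10 SE, adjusted p = 3.16e-10) and 6.94-fold in NP-D@MP against PBS (2.79 ± 0.10, adjusted p = 4.11e-10), and 2.10-fold and 1.87-fold on the table-read scale, while quantile normalization ended the call in NP-D@MP against PBS (0.15, adjusted p = 0.145). Tspan31, which overlaps it on the opposite strand and from which reads cannot be told apart without strand, averaged 26.7 ± 0.73, 23.7 ± 3.03, 28.7 ± 2.35 and 31.1 ± 1.22 FPKM (SD, n = 3 each) in NP-D@MP, NP-D@M, NP@M and PBS.

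Cyclin D1 (Ccnd1, ENSMUSG00000070348, chr7:144929931-144939925), the D-type partner of Cdk4 and Cdk6, had 252, 247 and 247 FPKM in NP-D@M libraries, against 90.8, 87.5 and 85.0 FPKM in NP@M libraries. It had 260, 274 and 252 FPKM in NP-D@MP libraries, against 94.5, 94.97 and 87.6 FPKM in PBS libraries. Its libraries with D lay together and above all others in FPKM. Ccnd1 rose 2.83-fold in NP-D@M against NP@M (1.49 ± 0.08 SE, adjusted p = 5.75e-09) and 2.84-fold in NP-D@MP against PBS (1.49 ± 0.08, adjusted p = 5.57e-09), and turned to a fall of log2 -0.33 (adjusted p = 0.00102) and -0.38 (adjusted p = 0.000324) on the table-read scale. Its rank within the library was also lower with D, above 95.1% to 95.6% of tested genes against 97.4% to 97.6% without. It shares 21.6% of its words with a gene on the opposite strand (Oraov1 in the table), which averaged under 1 FPKM in every group.

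Cdk6 (ENSMUSG00000040274, chr5:3341485-3531008), the other partner of cyclin D, had 3.35, 3.29 and 3.31 FPKM in NP-D@M libraries, against 5.48, 5.57 and 5.66 FPKM in NP@M libraries. It had 2.87, 3.20 and 2.58 FPKM in NP-D@MP libraries, against 5.06, 5.22 and 5.23 FPKM in PBS libraries. The groups did not overlap, but the fold in FPKM was the smallest among the members. Cdk6 fell 1.68-fold in NP-D@M against NP@M (-0.61 ± 0.08 SE, adjusted p = 2.08e-05) and 1.79-fold in NP-D@MP against PBS (-0.67 ± 0.08, adjusted p = 8.57e-06), and 5.99-fold and 6.66-fold on the table-read scale. The call was lost in both when a trend on gene length was removed (-0.10, adjusted p = 0.26, and -0.18, adjusted p = 0.0595).

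The scale of the libraries bore on the direction or call of Cdk4, Ccnb2 and Ccnd1 and of none of the 7 members that fell. On the table-read scale the median log2 change of all genes tested moved to -1.46 in both comparisons, 1 member (Cdk4) rose and 8 fell in each, and Ccnb2 passed the test in neither. There 17.5% of all genes rose and 70.5% fell in NP-D@M against NP@M, and 17.5% rose and 70.7% fell in NP-D@MP against PBS, so 8 falls among 10 members are near the share over all genes. Ccnb2 and Ccnd1 lay above the median of all genes both in FPKM and on the table-read scale. With quantile normalization Ccnd1 lay below it, at -0.89 in NP-D@M against NP@M (median -0.10) and -0.94 in NP-D@MP against PBS (median -0.13). Over all genes, 1765 rose in NP-D@M against NP@M and 1771 in NP-D@MP against PBS on the table-read scale, beside 4222 and 4367 in FPKM. On the table-read scale Ccna2 fell 49.7-fold and Cdk1 38.7-fold in NP-D@M against NP@M, and Cdk1 fell 53.2-fold and Ccnb1 48.6-fold in NP-D@MP against PBS. The falls of the members of G1 and S phase were also larger on that scale, at 11.1-fold and 15.01-fold for Cdk2, 7.38-fold and 9.23-fold for Ccne1, and 9.57-fold and 16.7-fold for Ccne2, for NP-D@M against NP@M first and NP-D@MP against PBS second. Quantile normalization gave 1 rise and 8 falls in NP-D@M against NP@M, where 37.7% of all genes rose and 41.8% fell, and 0 rises and 8 falls in NP-D@MP against PBS, where 38% rose and 42.3% fell.

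**Figure D2:**
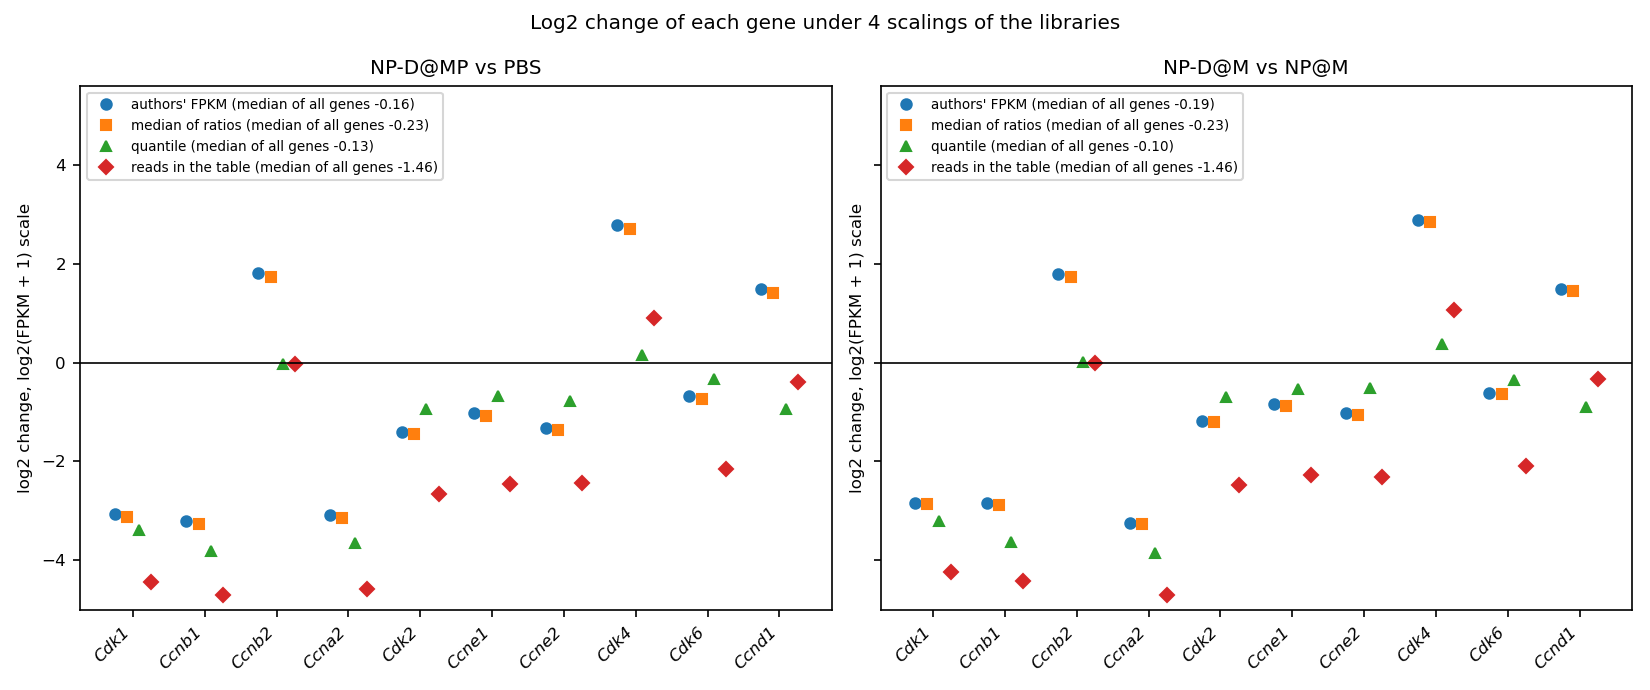
Log2 change of each member for NP-D@MP vs PBS and for NP-D@M vs NP@M under 4 scalings of the libraries, with the median of all tested genes under each. Ccnb2 moves from 1.79 in FPKM to -0.01 on the table-read scale for NP-D@M vs NP@M, and the 7 members that fell lie below 0 throughout.

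Gene length went with the direction of change over all genes. With genes cut by length into 10 classes of equal size, the median log2 change in NP-D@M against NP@M was 1.70 in the shortest class and -0.64 in the longest, and in NP-D@MP against PBS 1.89 and -0.62. Ccnb2, at 1531 bases the shortest member, lay in the next class (914 to 1793 bases), with medians of 1.03 and 1.08. Cdk6, at 13989 bases the longest, lay in the last class, and its own change of -0.61 and -0.67 was close to the median there. With a trend on length removed from each library, Cdk6 was no longer called, as given above, and the other 9 members kept direction and call. Cdk1, Ccna2 and Ccnb1 (4934, 4083 and 4217 bases) and Ccnd1 (4709 bases) are of like length. In FPKM Ccnd1 rose and the others fell, while on the table-read scale Ccnd1 fell too (-0.33 and -0.38). Whether length plays a part in these changes was not tested beyond this.

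**Figure D3:**
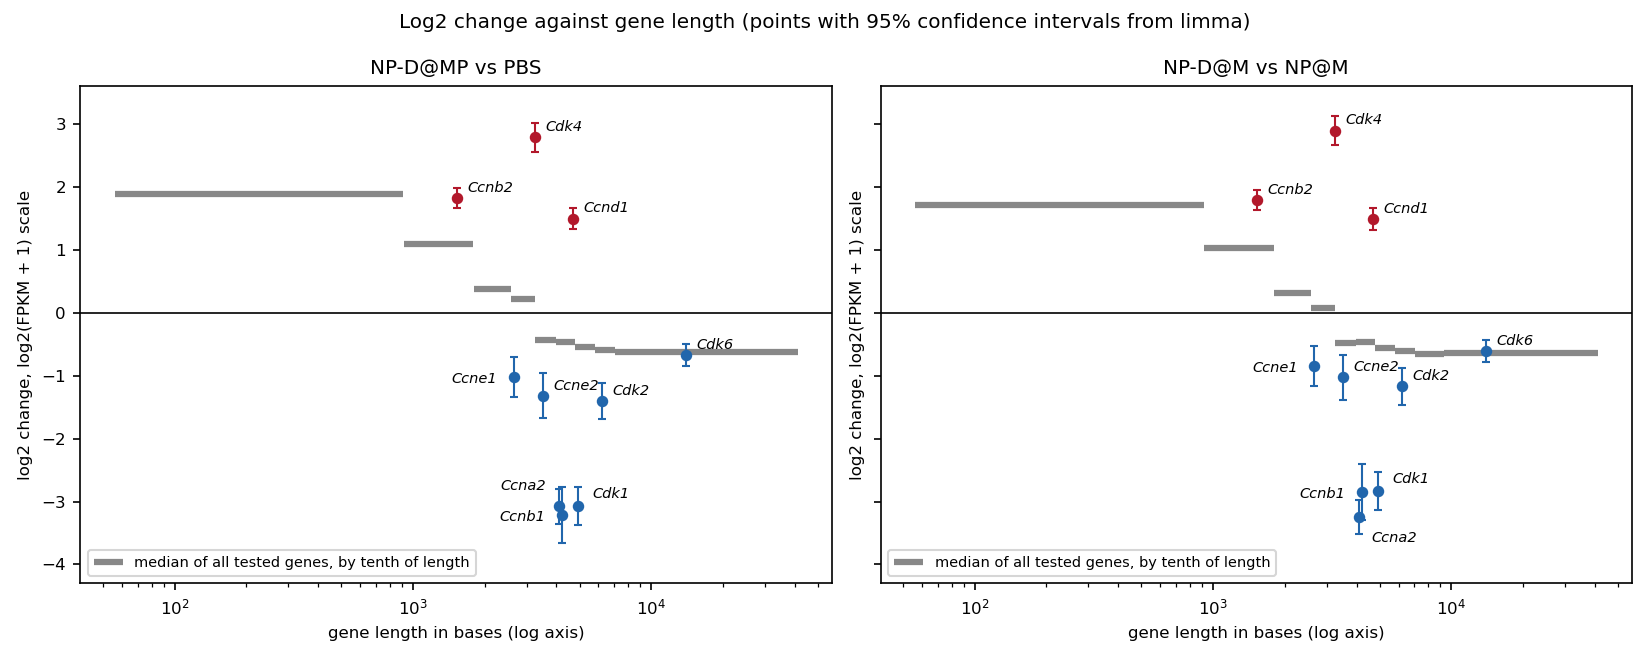
Log2 change of each member against the length of the gene in bases (log axis), for NP-D@MP vs PBS and NP-D@M vs NP@M, with 95% confidence intervals from limma, and grey bars for the median of all tested genes in each of 10 classes of length. Cdk6 sits on the median of its class, Ccna2, Ccnb1 and Cdk1 lie far below theirs, and Cdk4 and Ccnd1 lie far above theirs.

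Ratios of 2 members within a library do not depend on how the library was scaled, and they show how the kinases stood to their cyclins. In each case the log2 ratio of reads per kilobase was compared between 6 libraries with D and 6 without. An exact two-sided permutation test was used, which cannot go below p = 0.002165 here, with adjustment over 11 ratios. Each set pools 2 treatments, NP-D@MP with NP-D@M and NP@M with PBS, and the test takes all libraries of a set as alike. Its p-values therefore do not speak of either treatment alone. With 3 libraries against 3, the same exact permutation test could not have passed the threshold used here. Ccnb1/Cdk1 had a median of 1.79 with D (0.917 to 4.10) and 1.61 without (1.52 to 1.89), a difference of 0.20 in mean log2 ratio (exact p = 0.558, adjusted p = 0.683). Ccnb2/Cdk1 had a median of 74.7 with D (45.1 to 101.8) and 1.57 without (1.503 to 1.77), a difference of 5.50 at the smallest possible p (adjusted p = 0.003401), higher in 6 of 6 libraries. So the 2 B cyclins stood at similar levels relative to Cdk1 without D, and far apart with it.

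**Figure D4:**
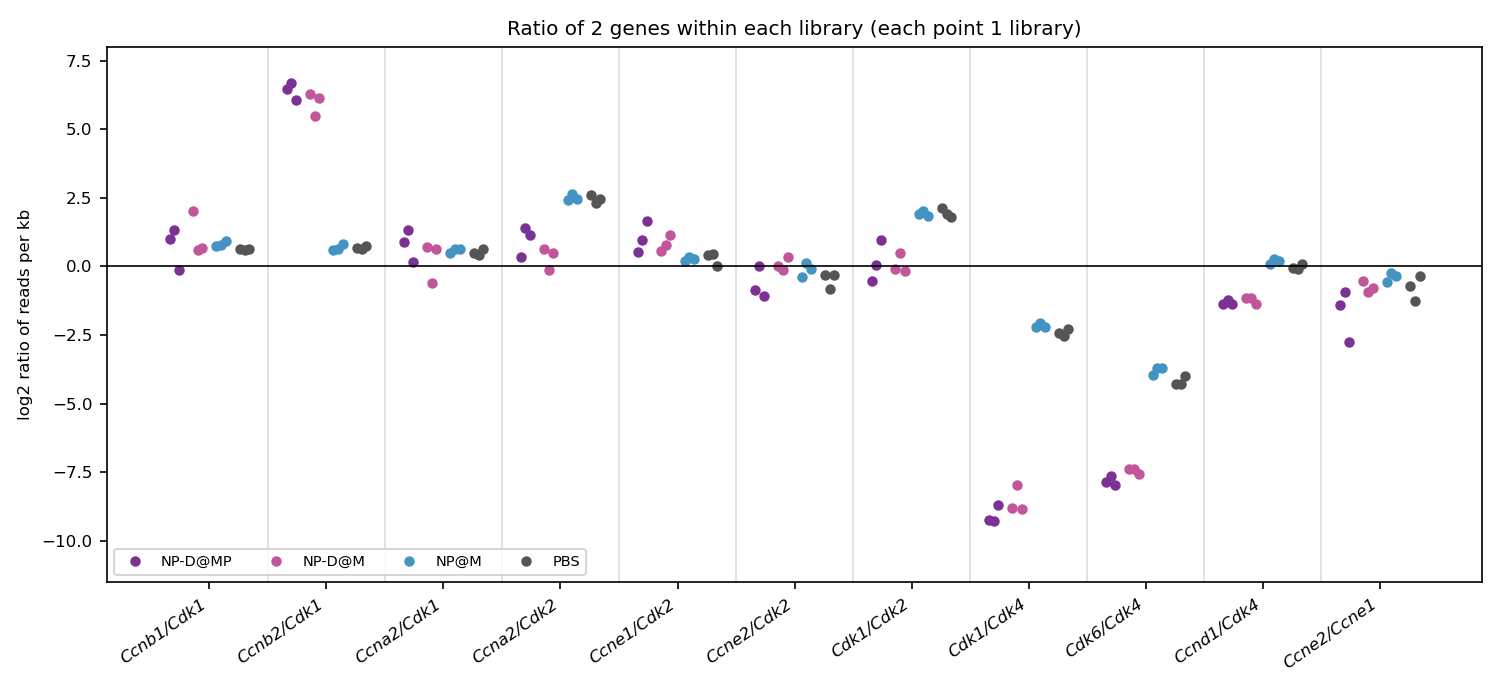
Log2 ratio of reads per kilobase for 11 pairs of members in each of the 12 libraries, coloured by group. Ccnb2/Cdk1 and Cdk1/Cdk4 show the widest gaps between libraries with and without D, at mean differences of 5.50 and -6.52, and Ccnb1/Cdk1, Ccna2/Cdk1, Ccne2/Cdk2 and Ccne2/Ccne1 overlap.

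Among the other pairs, Ccna2/Cdk1 did not pass the test (medians 1.60 with D and 1.47 without, difference -0.03, exact p = 0.913, adjusted p = 0.939), and its libraries with D ranged from 0.654 to 2.53. Relative to Cdk2 both were lower with D, with medians of 1.46 and 5.52 for Ccna2/Cdk2 (difference -1.84) and of 0.987 and 3.75 for Cdk1/Cdk2 (difference -1.81). Ccne1/Cdk2 was higher with D, 1.83 against 1.23 (difference 0.66), whereas Ccne2/Cdk2 passed no test, 0.965 against 0.810 (difference 0.02, exact p = 0.939). Among the G1 genes, Ccnd1/Cdk4 was 0.411 with D and 1.06 without (difference -1.35), Cdk6/Cdk4 was 0.00514 and 0.0637 (difference -3.65), and Cdk1/Cdk4 was 0.00219 and 0.211 (difference -6.52). All ratios called here had no overlap between the 2 sets of libraries, exact p = 0.002165 and adjusted p = 0.003401. For Ccnb2/Cdk1, Cdk1/Cdk4 and Cdk6/Cdk4 this was fixed beforehand, since 1 gene rose and the other fell in FPKM without overlap. Of all genes, 40.7% lay higher and 46.6% lower without overlap in NP-D@M against NP@M. How many pairs of other genes reach the same p was not counted, so a call as such says little about these pairs. Ccne2/Ccne1 was 0.527 with D and 0.722 without (difference -0.64, exact p = 0.0758, adjusted p = 0.104), and it passed without PBS replicate 2 (-0.77, adjusted p = 0.0268) or without NP-D@M replicate 7 (-0.78, adjusted p = 0.0417).

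The order of the levels differed accordingly, in FPKM, which is per length. In NP-D@MP libraries it was Cdk4 (mean 654), Ccnd1 (262), Ccnb2 (103), Cdk6 (2.88), Ccne1 (2.26), Ccna2 (2.13), Ccnb1 (2.07), Cdk1 (1.23), Cdk2 (1.13) and Ccne2 (0.741). The first 3 were far above the others and apart from each other, Cdk6 lay above Ccne1 without overlap, and each later neighbour overlapped the one before it. In PBS libraries it was Cdk4 (94.2), Ccnd1 (92.4), Ccnb2 (28.4), Ccnb1 (27.1), Ccna2 (25.3), Cdk1 (17.6), Ccne1 (5.63), Cdk6 (5.17), Cdk2 (4.59) and Ccne2 (3.33). There Cdk4 and Ccnd1 overlapped, as did Ccnb2 with Ccnb1, Ccnb1 with Ccna2, and Ccne1 with Cdk6, while Cdk1 stood apart from both its neighbours and Cdk2 from both of its own. Ccnb2, Ccnb1 and Ccna2 thus followed each other closely in PBS, and of these Ccnb2 alone was among the 3 highest members in NP-D@MP.

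No member passed the test between the 2 treatments with D. In NP-D@MP against NP-D@M, limma called 0 of 10 members, where it called 0.0396% of all genes higher and 0.0099% lower, and voom on the recovered reads also called 0 members. Without adjustment 2 members had p under 0.05, both lower in NP-D@MP, as had 1713 of the 10101 genes tested. Ccne2 averaged 0.741 ± 0.333 FPKM in NP-D@MP and 1.57 ± 0.336 FPKM in NP-D@M (SD, n = 3 each), without overlap (log2 change -0.57, 95% confidence interval -0.93 to -0.21, limma adjusted p = 0.194). Ccnb1 averaged 2.07 ± 0.582 FPKM in NP-D@MP and 3.52 ± 1.46 FPKM in NP-D@M, with overlap (-0.52, interval -0.97 to -0.08, limma adjusted p = 0.252). Without NP-D@M replicate 9 the difference in Ccnb1 was called (-0.75, adjusted p = 0.0228), and so were 969 genes higher and 290 lower. In FPKM, groups did not overlap for 3 members on the higher side (Cdk4, Ccnb2 and Ccnd1), as for 9.57% of all genes. Nor did they for 2 on the lower side (Cdk6 and Ccne2), as for 4.6%. On the table-read scale Cdk4, Ccnb2 and Ccnd1 each overlapped between the 2 groups, while Cdk6 and Ccne2 did not. The intervals of the members not named with a value here lay between -0.52 and 0.40 on the log2 scale.

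In NP@M against PBS, limma called 0 of 10 members, where it called 0% of all genes higher and 0.0099% lower, and voom also called 0. Cdk4 alone among the members had an unadjusted p under 0.05, as had 10.8% of all genes tested (1092 of 10101), with 77.3 ± 6.63 FPKM in NP@M and 94.2 ± 9.80 FPKM in PBS (SD, n = 3 each), and its groups overlapped (log2 change -0.28, 95% confidence interval -0.51 to -0.05, limma adjusted p = 0.448). Groups did not overlap for 2 members, both higher in NP@M, as for 12.4% of all genes. Cdk6 averaged 5.57 ± 0.091 FPKM in NP@M and 5.17 ± 0.097 FPKM in PBS, and Ccnb1 30.4 ± 0.396 FPKM in NP@M and 27.1 ± 0.864 FPKM in PBS. Neither difference passed the test (adjusted p = 0.67 for Cdk6 and 0.783 for Ccnb1).

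Genes with the profile most like each member over the 12 libraries were found by the root mean square difference of log2(FPKM + 1), each centred on its own mean. They were Nup50 and Stard5 for Cdk1 (0.12 each), Wac (0.11) and Nedd9 (0.13) for Ccna2, and Rab35 (0.19) and Cdc5l (0.20) for Ccnb1, which had no match as close as the other members. Cdk2 was nearest to Mief1 (0.11) and Luc7l (0.12), Ccne1 to Zfp111 and Nfrkb (0.10 each) and Ccne2 to Arrdc3 (0.14) and Abhd13 (0.15). The 3 members higher in FPKM had closer matches, Samm50 and Gins2 for Cdk4, Add1 and Map4 for Ccnb2 and Eml1 and Wdr1 for Ccnd1 (0.05 each), as had Cdk6 with Nup88 and Herc1 (0.07 each). None of these was itself a member. The members that were each other's nearest member were Ccnb2 with Ccnd1 (0.17), Cdk6 with Ccne1 (0.23), Cdk2 with Ccne2 (0.24) and Cdk1 with Ccna2 (0.30).

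Other genes of the pathway were read from lists by role, and their counts stand beside those of all genes tested. These lists too were chosen with earlier results of these data known. In FPKM 41.8% of all genes rose and 47.7% fell in NP-D@M against NP@M, and 43.2% and 47.3% in NP-D@MP against PBS, with medians of -0.19 and -0.16. On the table-read scale 17.5% rose and 70.5% to 70.7% fell, with a median of -1.46 in each, so a list that falls as a whole there stands against a background of falls. All 7 tested genes that hold CDKs back (Wee1-type kinases, the phosphatase Cdkn3 and inhibitor proteins) fell in NP-D@M against NP@M, and all 7 in NP-D@MP against PBS, with medians of -2.02 and -2.14, and 6 of the 7 fell in each with quantile normalization. The p19 inhibitor gene Cdkn2d had 0.605, 1.23 and 0.774 FPKM in NP-D@M libraries, against 16.5, 15.7 and 16.5 FPKM in NP@M libraries (log2 change -3.22 ± 0.16 SE, adjusted p = 3.02e-09). The p21 inhibitor gene Cdkn1a averaged 9.41 ± 0.685 FPKM in NP-D@M and 38.4 ± 4.15 FPKM in NP@M (SD, n = 3 each, adjusted p = 1.68e-08). Of 8 tested CDK-activating factors 2 rose and 6 fell in both comparisons (medians -0.97 and -0.93), and none rose, 0 against 8 falls, on the table-read scale. Cdk7, the kinase that activates other CDKs, averaged 0.643 ± 0.156 FPKM in NP-D@M and 4.98 ± 0.096 FPKM in NP@M (adjusted p = 3.12e-07). Cks1b, a small CDK-binding protein, averaged 200.1 ± 8.95 FPKM in NP-D@M and 73.2 ± 2.56 FPKM in NP@M (log2 change 1.44), which turned to -0.38 on the table-read scale.

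Of 8 other tested cyclins and CDKs, 3 rose and 4 fell in NP-D@M against NP@M and 4 and 4 in NP-D@MP against PBS (medians -0.31 and -0.15), while all 8 fell on the table-read scale. Cyclin D2 (Ccnd2), the sister of cyclin D1, averaged 6.03 ± 0.65 FPKM in NP-D@M and 11.5 ± 0.751 FPKM in NP@M (log2 change -0.83, adjusted p = 3.91e-06), and cyclin G2 (Ccng2), known from arrested cells, averaged 2.002 ± 0.777 and 10.8 ± 0.672 FPKM (-2.02, adjusted p = 3.42e-07). Of 12 tested genes of the Rb and E2F family 4 rose and 8 fell in both comparisons (medians -0.71 and -0.70, and 1 and 10 on the table-read scale). Tfdp1, the dimer partner of E2F proteins, averaged 198 ± 13.6 FPKM in NP-D@M and 33.6 ± 1.76 FPKM in NP@M (2.52, and 0.72 on the table-read scale), and the repressor E2f8 averaged 0.776 ± 0.167 and 6.94 ± 0.919 FPKM (-2.16, adjusted p = 8.45e-09). Of 6 tested genes of the MuvB complexes, with B-Myb and FoxM1, which act on the late cell cycle promoters, 2 rose and 4 fell in both (medians -0.61 and -0.43, with 0 and 5, and 0 and 6, on the table-read scale). The 2 that rose in FPKM were Foxm1, at 91.6 ± 7.90 FPKM in NP-D@M and 27.0 ± 0.991 FPKM in NP@M, and the histone-binding subunit gene Rbbp4, at 49.4 ± 5.23 and 19.8 ± 0.342 FPKM. On the table-read scale they gave -0.08 (adjusted p = 0.411) and -0.51.

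Of 21 tested genes of the ligases that destroy cyclins, 5 rose and 16 fell in NP-D@M against NP@M, and 4 and 15 in NP-D@MP against PBS (medians -0.81 and -1.06, with 3 and 17, and 2 and 17, on the table-read scale). Anapc5, a subunit of the anaphase-promoting complex, had 479, 504 and 495 FPKM in NP-D@M libraries, against 43.4, 42.9 and 47.9 FPKM in NP@M libraries (log2 change 3.43 ± 0.09 SE, and 1.62 on the table-read scale). Cul1, the scaffold of the SCF ligases, averaged 1.70 ± 0.237 FPKM in NP-D@M and 17.8 ± 1.94 FPKM in NP@M (-2.80, adjusted p = 9.43e-10). Of 16 proliferation markers 8 rose and 8 fell in both comparisons (medians 0.17 and 0.09), which became 0 and 15 in NP-D@M against NP@M, and 0 and 16 in NP-D@MP against PBS, on the table-read scale. The largest falls by p were those of Top2a, the topoisomerase gene of chromosome separation, at 2.41 ± 0.665 FPKM in NP-D@M and 38.0 ± 2.26 FPKM in NP@M, and of the mitotic kinase gene Aurka, at 0.957 ± 0.625 and 22.5 ± 1.71 FPKM. With quantile normalization, which called 37.7% of all genes higher and 41.8% lower in NP-D@M against NP@M, the rises and falls there were 2 and 5 of 8 other cyclins and CDKs, 0 and 6 of 8 activating factors, 3 and 7 of 12 in the Rb and E2F family, 0 and 2 of 6 in the MuvB list, 4 and 13 of 21 ligase genes and 1 and 12 of 16 proliferation markers. In NP-D@MP against NP-D@M and in NP@M against PBS, limma called 0 of the 78 tested genes of these 7 lists (12 and 7 had an unadjusted p under 0.05, beside 1713 and 1092 of the 10101 genes tested), and voom with the authors' effective library sizes called 0 genes.

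**Figure D5:**
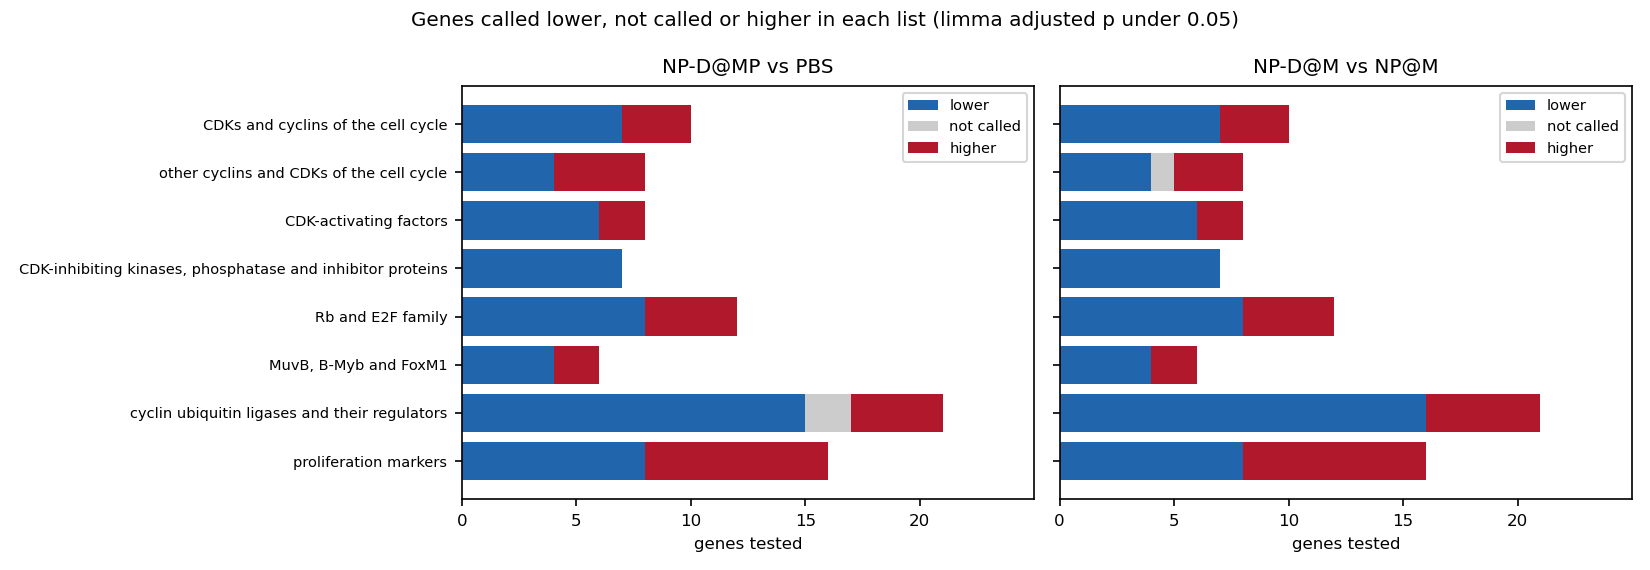
Number of tested genes called lower, not called and called higher by limma in each list of cell cycle genes, for NP-D@MP vs PBS and for NP-D@M vs NP@M. The genes that inhibit CDKs were called lower in 7 of 7 cases, and the proliferation markers split into 8 and 8 in FPKM.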

How the data were processed

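RNA sequencing of CT26 cells gave 1 table of FPKM for 12584 genes in 12 libraries, and the groups came from the sample titles. FPKM were computed by the authors and deposited as such; Bowtie 0.12.2 and the build mm8 are named per the submitters' processing notes, while the coordinates in the table are those of GRCm38 (12580 of 12584 gene IDs found in GENCODE M21, 12113 with identical coordinates). The counting tool and its use of strand are not given in the sources used here. Multiplying FPKM by gene length gave whole multiples of 1 read for 100% of values (relative tolerance 1e-06), and from these the effective library sizes, 7.13 to 8.40 M with D and 28.2 to 31.1 M without (M, units of 1e+06 reads), against 12.8 to 15.7 M reads in the table. Replicates of a group differed beyond sampling noise, with 7.10 to 62.6 chi-square per degree of freedom.

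Genes with at least 1 FPKM in at least 3 libraries (10101, all 10 members among them) were tested with limma 3.58.1 (R 4.3.3) on log2(FPKM + 1) over all 12 libraries, with Benjamini-Hochberg adjustment over all genes tested and a threshold of 0.05. Fold changes on that scale understate those of low genes, and folds of group means were taken from FPKM itself. The fit was also run on simulated reads in which few genes changed. Most genes tested were called between groups with and without D, so that run cannot vouch for the fit here. Ratios used reads per kilobase with 0.5 read added and an exact permutation test of pooled sets, 6 libraries with D against 6 without (scipy 1.17.1). All members are named; of each other list, the 2 called genes with the smallest p in NP-D@M vs NP@M are named, and of each member the 2 genes nearest in profile. Alternatives were other scalings, filters, pseudocounts, limma settings, samples in the fit, voom on recovered reads, removal of length and GC trends, and leaving out each library. The members and lists were chosen with earlier results of these data known.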

Additional observations from a re-analysis of the deposited data

How the results depend on the processing

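For NP-D@M against NP@M and NP-D@MP against PBS, the 7 members that fell kept their direction under every alternative that gave a value, and their call under all but removal of a length trend (Cdk6). On the table-read scale, Ccnb2 gave -0.010 and -0.032 and Ccnd1 -0.33 and -0.38 in these 2 comparisons, voom on the same reads gave -0.012 and -0.031, and -0.33 and -0.39, and quantile normalization gave 0.016 and -0.019, and -0.89 and -0.94. A mean of at least 5 FPKM removed Cdk2, Cdk6, Ccne1 and Ccne2 from the test. Counts of genes called higher became 1765 and 1771 on the table-read scale (voom 1732 and 1730), and those called lower 1381 and 1339 with a mean of at least 5 FPKM. Without single libraries they were 4059 to 4238 higher and 4639 to 4757 lower, and 4210 to 4263 and 4612 to 4672.

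For NP-D@MP against NP-D@M (4 genes higher and 1 lower as reported), the counts were 11 and 10 without a filter, 20 and 6 with a pseudocount of 0.1, 1 higher on the table-read scale, 0 higher with a mean of at least 5 FPKM, 0 and 0 with only the 6 libraries compared and with voom on either scale, 2 lower with a length trend removed and 8 lower with a GC trend removed, and 3 to 969 higher and 1 to 290 lower without single libraries. Without NP-D@M replicate 7 there were 8 lower. In NP@M against PBS, with 0 higher and 1 lower, they were 2 and 5 with quantile normalization, 3 higher without a filter, 1 higher with a pseudocount of 0.1 or only the 6 libraries, 0 lower with a mean of at least 5 FPKM or voom on effective library sizes, 19 and 51 with voom on the reads in the table, and 0 to 1 higher without single libraries. The log2 ratio Ccne2/Ccne1 ranged from -0.78 to -0.33 without single libraries, and no other of the 11 ratios changed its call. Some alternatives hold fewer genes or samples by construction; otherwise the cause was not tested.

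Voom and the removal of length and GC trends were chosen after seeing the data, in place of the planned count-model tests, which were not run because the table holds FPKM. No paired analysis was possible because the titles count the libraries from 1 to 12, and the groups share none of these numbers. Depth limits the low members most, with 9 to 56 reads per library for Ccne2 with D.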
